A study of Mus musculus with 2 samples.

Results

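Chaperone and heat shock genes were taken as every RefSeq entry of the gene activity table whose symbol begins with Hsp (followed by a digit or by a, b, d, e, f or h), with Dnaja, Dnajb or Dnajc and a number, with Cct2 to Cct8 or with Pdia and a number, together with Hsf1 to Hsf5, Calr, Canx, P4hb, Tcp1, Hyou1 and Serpinh1. This rule found 109 of the 24165 entries, and these belong to 90 of the 20128 gene symbols listed. The table comes from global run-on sequencing (GRO-seq), in which polymerases engaged on the DNA of isolated nuclei are allowed to extend their transcripts with bromouridine, so that each sequenced RNA marks a transcribing polymerase. The cells were C2C12, an established line of mouse myoblasts, grown to 80% confluency in serum with no treatment, and 4 plates went into each nuclei isolation. Both replicate libraries were pooled by the authors into a single value per entry, so there is no second condition, no spread between libraries and no test in what follows.

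Gene activity is the density of sense-strand reads in the gene body, from 1 kb after the transcription start site (TSS) to the transcript end, per kilobase of mappable bases and scaled to the number of reads (RPKmM). It is a level per length, and genes can be compared on it. A difference between genes has no error here, and in a bulk culture a value shared by all cells cannot be told apart from a higher value in some of them. An entry whose density did not pass the authors' comparison with gene deserts is listed as inactive. The value of a symbol with several entries is the median of its active entries. The label of the cells was checked on 6 myoblast markers. All were active, where 68.7% of all symbols were, from 2.39 RPKmM for Myod1 and Myog to 72.5 for Des. Of 7 listed markers of leukocytes, endothelium, epithelium, neurons and fat cells, 1 was active, Pecam1 at 0.01.

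Chaperones bind unfolded or partly folded proteins and release them in cycles that are mostly driven by ATP. Hsp70 proteins are loaded with clients by J-domain proteins, Hsp90 acts late on folding clients such as kinases and receptors, and the ring-shaped chaperonins enclose a chain while it folds. The endoplasmic reticulum (ER) and the mitochondrion each have their own set, and in the ER lectins and disulphide isomerases work beside them on secreted proteins. Heat shock factors are the transcription factors that raise chaperone genes after stress, and the unfolded protein response does so for the ER set.

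Of the 90 symbols, 85 (94.4%) were active, against 68.7% of all symbols in the table. An activity of at least 1 RPKmM was found for 55 (61.1%), where the share over all symbols is 31.4%, and of at least 10 for 17 (18.9%), where it is 1.94%. The median of the 85 active members was 2.61 RPKmM, with quartiles of 0.69 and 6.34. Over all 13822 active symbols it was 0.86, with quartiles of 0.21 and 1.96, so the medians stood 3.04 to 1. Activity among the members ran from 0.03 for Cct6b to 311.5 for Calr. Of the active members, 59 (69.4%) lay above the median of all active symbols and 26 did not. The activity was very unequally spread, as Calr and Hsp90ab1 together made 46.6% of the sum over all members and the 6 highest genes made 68.2%.

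**Figure D1:**
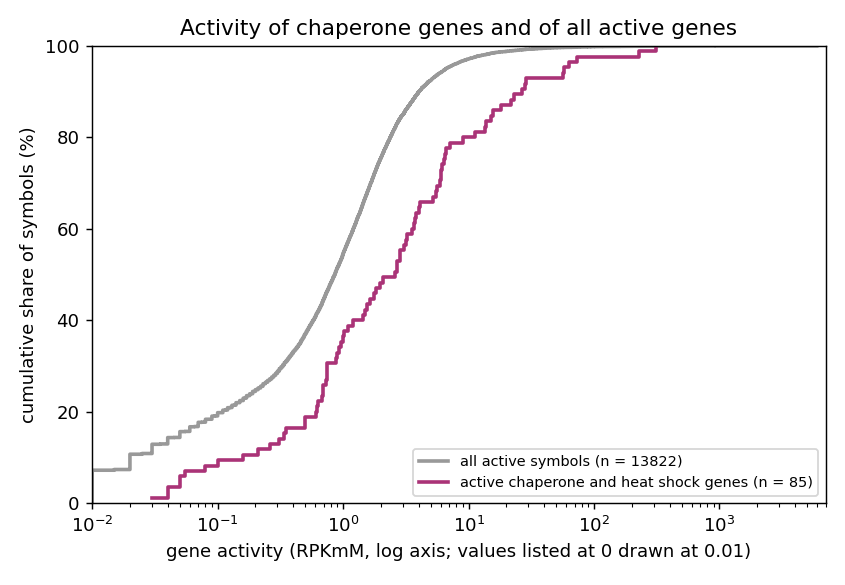
Cumulative share of active gene symbols (vertical axis, %) against gene activity (horizontal axis, RPKmM, log scale) for the 85 active chaperone and heat shock genes and for all 13822 active symbols. The members' line lies to the right of the other, with medians of 2.61 and 0.86.

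The 5 members without an active entry were Dnajb13, Dnajc5b, Dnajc5g, Dnajc6 and Hsf3. Dnajc6 encodes auxilin, which uncoats clathrin vesicles at nerve terminals, and Dnajb13 encodes a sperm flagellum protein. Dnajc5b and Dnajc5g are relatives of Dnajc5, the cysteine string protein of secretory vesicles, which was itself active at 3.69. No symbol had both active and inactive entries. The active members lowest in the table were Cct6b at 0.03, Pdia2 and Hspa1a at 0.04, Hspa1l and Dnajc22 at 0.05, Dnajc12 at 0.055 and Hspa12b at 0.08. Values this low are only a few steps of the 2 decimals to which the table is rounded, so no fold against them is given.

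By the place where their proteins work, 49 symbols were assigned to the cytosol and nucleus, 23 to the ER, 7 to the mitochondrion and 11 to other or unsettled places. The ER members had the highest median activity, 5.96 RPKmM, with quartiles of 1.95 and 22.4. The cytosolic members had a median of 2.09 (0.59 and 5.59) and the mitochondrial members 1.00 (0.765 and 4.39). The ER median was thus 2.86 times the cytosolic and 5.96 times the mitochondrial one. All 23 ER and all 7 mitochondrial symbols were active, and so were 47 of the 49 cytosolic ones, against the 68.7% of all symbols. The distributions overlapped widely. When each ER member was paired with each cytosolic member, the ER member was the more active in 66.7% of 1081 pairs. A mitochondrial member exceeded a cytosolic one in 47.1% of 329 pairs, so these groups were not ordered by pairs.

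**Figure D2:**
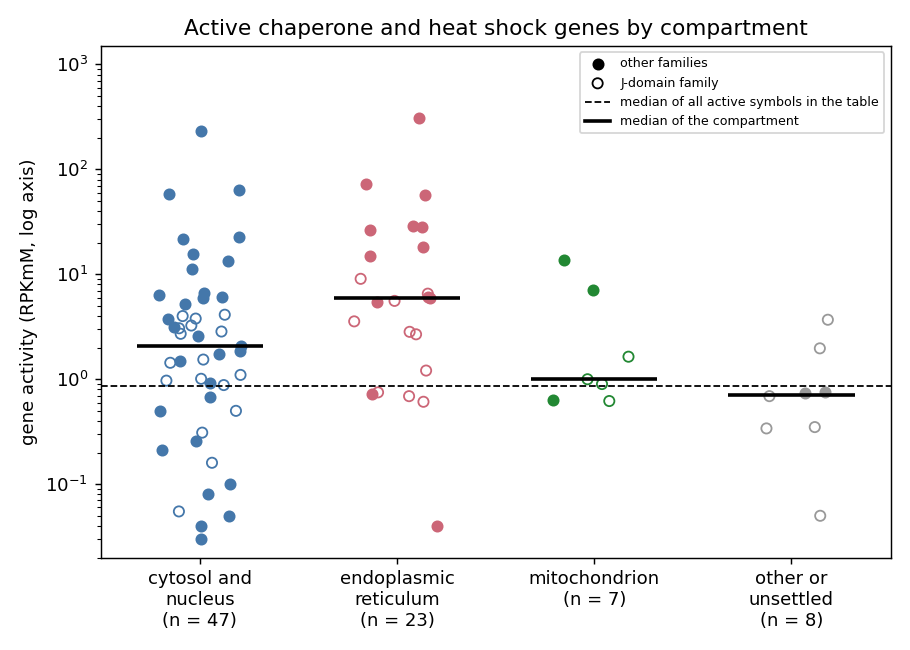
Gene activity (vertical axis, RPKmM, log scale) of each active member, by compartment, with open circles for the J-domain family, a bar at each compartment's median and a dashed line at 0.86, the median of all active symbols. The ER bar is highest at 5.96, and in each compartment except the other group the highest points are filled circles.

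The order of the compartments depended on the J-domain genes, which make 45.6% of the members. Without them the median was 18.2 over 13 ER genes, 2.89 over 30 cytosolic genes and 7.13 over 3 mitochondrial genes. The cytosolic group includes the 4 active heat shock factors, which are transcription factors, and the ER group has none. Medians without these factors were not computed. The ratio of the ER to the cytosolic median then rose to 6.31, and that of the mitochondrial to the cytosolic median went from 0.480 to 2.47. The latter rests on Hspa9, Hspd1 and Hspe1 alone. Among J-domain genes only, the medians were 2.76 in the ER, 1.44 in the cytosol and 0.95 in the mitochondrion.

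Other genes of the folding pathways, from a list that the rule does not reach, did not follow the same order. The list holds co-chaperones, prefoldin subunits, oxidases and proteases. It also holds some further chaperones, such as Cryab in the cytosol and Trap1 in the mitochondrion (1.23 RPKmM). All 42 that the table lists were active, where the share over all symbols is 68.7%. Their median was 2.21 RPKmM over 23 cytosolic genes, 1.27 over 11 ER genes and 1.34 over 8 mitochondrial genes. The highest were Pfdn2, a subunit of prefoldin, at 11.5 in the cytosol, Txndc5, an ER thioredoxin, at 7.96 and Afg3l2, a protease of the mitochondrial inner membrane, at 3.31. The lowest were Unc45b, a myosin chaperone of muscle, at 0.07, Ero1lb, an ER oxidase, at 0.23 and Hscb, an iron-sulphur cluster co-chaperone, at 0.23. Only Pfdn2 reached 10, which is 1 of 42 (2.38%), near the 1.94% of all symbols.

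The 3 most active ER genes were Calr, Hspa5 and Hsp90b1. Calr encodes calreticulin, a calcium-binding lectin that retains glycoproteins until they are folded. It lies on the minus strand at chr8:87365749-87370833 (mm9) and had the highest activity of all members, 311.5 RPKmM, rank 5 among the 13822 active symbols. Canx, its membrane-bound relative calnexin, had 26.7, so the lectins differed 11.7 times. Hspa5, which encodes BiP, the Hsp70 protein of the ER, had 73.0 at chr2:34627490-34632051 on the plus strand. Hsp90b1, the ER Hsp90 protein also known as Grp94, had 56.9. Hyou1, a large Hsp70-like protein that exchanges the nucleotide of BiP, had 15.0, and Hspa13, a microsomal Hsp70 protein, had 5.96. BiP thus stood 4.86 times above its exchange factor gene and 12.25 times above Hspa13.

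The disulphide isomerases were graded from 28.6 RPKmM to 0.04. Pdia3, which works with the lectins on glycoproteins, had 28.6 and P4hb, which also serves as the beta subunit of collagen prolyl hydroxylase, had 27.99. Pdia4 had 6.04 and Pdia6 had 5.49, so P4hb was 5.10 times above Pdia6. Pdia5 had 0.73, below the median of all active symbols, and Pdia2, an isomerase known from the pancreas, had 0.04. Serpinh1, the collagen chaperone Hsp47, had 18.2. Among the 13 ER genes outside the J-domain family, 11 were at 1 or above and 8 were at 10 or above, where the shares over all symbols are 31.4% and 1.94%.

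Promoters of the ER genes were searched for the ER stress response element (ERSE), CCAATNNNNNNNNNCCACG, on both strands from 250 bases before to 50 bases after each start in the RefSeq promoter table (GRCm38.p6). That table held 74 of the 90 members, and Hyou1, Dnajc11, Hsp90ab1, Dnajc5b, Hsp90aa1, Dnajc2, Hspa8, Cct4, Hsf1, Dnajc12, Dnajc18, Dnajc5, Hspa9, Hspa13, Dnajc22 and Hsf4 were the others. The element was present for 6 of the 20 ER members found there and for none of the 41 cytosolic, 5 mitochondrial and 8 other members, and in 39 of all 32851 promoters (0.119%). Some members have several promoters in the table, and counted so it was in 6 of their 93 (6.45%). The 7 copies are shown because every member that holds one is an ER gene. They are read with the CCAAT end first, with CCAAT and CCACG in capitals, and their mm9 positions come from an exact match of each promoter to that genome.

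Hspa5, chr2:34627545-34627563, plus strand, same direction as the gene: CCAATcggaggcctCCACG
Hsp90b1, chr10:86168383-86168401, minus strand, same direction as the gene: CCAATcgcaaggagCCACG
Hsp90b1, chr10:86168278-86168296, plus strand, opposite direction: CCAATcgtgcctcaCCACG
Calr, chr8:87370974-87370992, plus strand, opposite direction: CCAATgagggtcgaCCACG
Canx, chr11:50139302-50139320, minus strand, same direction as the gene: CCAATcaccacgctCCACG
Pdia6, chr12:17273297-17273315, plus strand, same direction as the gene: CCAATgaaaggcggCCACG
Dnajc3, chr14:119337049-119337067, plus strand, same direction as the gene: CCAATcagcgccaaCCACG

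The activities of these 6 genes were 311.5 RPKmM for Calr, 73.0 for Hspa5, 56.9 for Hsp90b1, 26.7 for Canx, 5.49 for Pdia6 and 2.68 for Dnajc3, with a median of 41.8. Calr, Hspa5 and Hsp90b1, the highest ER genes, were among them. A related element, ERSE-II (ATTGGNCCACG, both strands), was present in 12 of all promoters (0.0365%) and in 1 of the members' 93 (1.08%), that of Dnajb11, at 9.06 RPKmM. The other 13 of the 20 ER members searched had a median of 3.56 and ran from 0.04 to 28.6, so the groups overlapped. Pdia3 and P4hb were highly active with neither element in this window. Hyou1, Hspa13 and Dnajc18 had no promoter to search and are in neither group. Outside the J-domain family, the median was 56.9 over 5 searched ER genes with ERSE and 12.1 over 6 without. The plain CCAAT box, which is part of ERSE, was in 37.4% of all promoters and in 43 of the members' 93 (46.2%). The TATA box (TATAAA, both strands) was in 13.6% of all promoters and in 4 of the members' 93 (4.3%).

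The 250 bases before the start are printed for the 2 ER genes of highest activity, from the RefSeq promoter table, with the ERSE copies in capitals. The window is chr2:34627360-34627609 on the plus strand for Hspa5 and chr8:87370831-87371080 on the minus strand for Calr (mm9).

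Hspa5: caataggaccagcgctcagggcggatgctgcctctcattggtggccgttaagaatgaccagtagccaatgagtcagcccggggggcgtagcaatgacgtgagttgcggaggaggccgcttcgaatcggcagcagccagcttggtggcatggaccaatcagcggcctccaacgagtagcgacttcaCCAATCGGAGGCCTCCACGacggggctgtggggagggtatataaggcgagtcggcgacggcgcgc
Calr: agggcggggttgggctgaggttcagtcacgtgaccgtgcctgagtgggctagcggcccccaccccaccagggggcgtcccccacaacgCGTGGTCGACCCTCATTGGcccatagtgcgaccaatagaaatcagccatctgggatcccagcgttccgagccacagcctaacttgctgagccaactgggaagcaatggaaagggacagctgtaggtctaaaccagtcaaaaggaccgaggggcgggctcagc

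Counted to the RefSeq start, the near end of the element lies 47 bases before it in Hspa5, 194 and 89 bases before it in Hsp90b1 and 144 bases before it in Calr. The GENCODE gene of Hspa5, whose position is given above, begins 120 bases before the RefSeq start, so that the element lies inside it. The other 6 copies lie outside the GENCODE gene of their own symbol, and neighbouring genes were not compared.

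In the cytosol, Hsp90ab1 and Hspa8, which cells make without stress, were the most active members, and their stress-inducible relatives were lower. Hsp90ab1, the constitutive Hsp90 gene, lies at chr17:45704724-45710220 on the minus strand and had 229.5 RPKmM, rank 7 among all active symbols. Hsp90aa1, its stress-inducible relative, had 6.10, a difference of 37.6 times. Hspa8, which encodes the constitutive Hsc70, had 63.7, close to its ER counterpart Hspa5. The inducible Hsp70 genes Hspa1b and Hspa1a had 0.68 and 0.04, and Hspa1l, a testis-expressed relative that starts head to head with Hspa1a, had 0.05. Hspa2, another Hsp70 gene, had 1.46 and 1.55 in its entries. Hspa4, a nucleotide exchange factor of the Hsp110 kind, had 11.2, its relatives Hsph1 and Hspa4l had 6.34 and 2.61, and Hspa14, an Hsp70 protein bound to ribosomes, had 4.64 and 5.7 in its entries. Hspa12a, a distant member of the family, was at 2.84 and 1.33, and Hspa12b at 0.08.

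**Figure D3:**
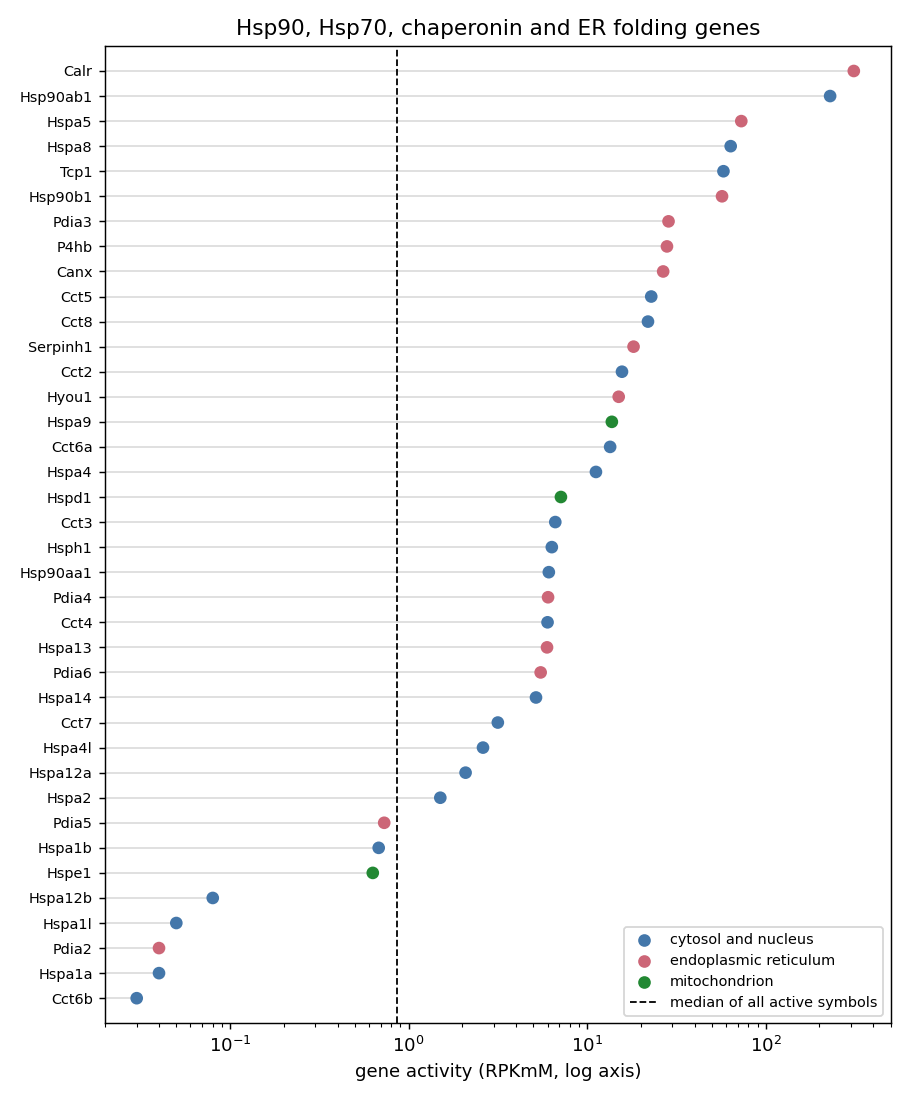
Gene activity (horizontal axis, RPKmM, log scale) of each active member of the Hsp90, Hsp70, chaperonin, disulphide isomerase, ER lectin and collagen chaperone families, coloured by compartment, with a dashed line at 0.86, the median of all active symbols. Calr at 311.5 and Hsp90ab1 at 229.5 stand apart from the rest, and 8 genes lie left of the line, with Cct6b lowest at 0.03.

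Similar copies elsewhere in the genome bear on several of these values, because only uniquely mapped reads were kept. Of the 75-base words in the gene bodies of Hspa1a and Hspa1b, 744 were shared, which is 40.2% of those of Hspa1a and 43.0% of those of Hspa1b. Words found once in mm9 made 59.8% of the body of Hspa1a, 56.6% of Hspa1b, 62.5% of Hspa8 and 85.7% of Hsp90aa1. Unmappable bases were taken out of the density by the authors, so the values describe the remaining bases, and the difference between Hspa1a and Hspa1b is uncertain. The part of mappability in the other values was not tested.

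The chaperonin of the cytosol, called CCT or TRiC, is a double ring built from 8 kinds of subunit in equal number, and it folds actin and tubulin. All 8 ring genes were active, where 68.7% of all symbols were. They lay above the median of all active symbols, with a median of their own of 14.6 RPKmM. Tcp1 had 58.0, Cct5 22.9, Cct8 21.9, Cct2 15.7, Cct6a 13.5, Cct3 6.63, Cct4 6 and Cct7 3.16. The highest was 18.4 times the lowest. Tcp1 overlaps 2 annotated small nucleolar RNA (snoRNA) genes on the same strand and Cct6a overlaps 1. Without Tcp1 and Cct6a the ratio was 7.23, from Cct5 to Cct7. Whether reads from these small RNAs add to the values was not tested. The gene body of Cct6a holds 20000 unsequenced bases of 27382 in mm9, so its value rests on the remainder and its annotated length includes the gap. Cct6b, a testis form of Cct6a, had 0.03. For comparison with another large complex, 36 of 40 proteasome subunit genes were active, beside 68.7% of all symbols. They had a median of 2.92 and ran from 0.35 to 12.3, and the set was chosen after the values were seen.

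Annotated snoRNA genes lay in 4 members, 3 of them in Hspa8, 2 in Tcp1, 2 in Hspa9 and 1 in Cct6a. Their values, given with their families, ran from 13.5 to 63.7 RPKmM. The ratio of the ER to the cytosolic median was 3.32 without these genes and that of the mitochondrial to the cytosolic median 0.529.

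The mitochondrial members with a folding role were also unequal. Hspa9, the mitochondrial Hsp70 protein mortalin, had 13.8 RPKmM, and its ER counterpart Hspa5 had 5.31 times as much. Hspd1, which encodes Hsp60, had 7.13, and Hspe1, which encodes its lid Hsp10, had 0.63. These last genes start head to head on chromosome 1, and Hspd1 was 11.3 times Hspe1. The body of Hspe1 counted here is 2176 bases long, with 97.4% of its words found once in mm9, and that of Hspd1 is 9409 bases long with 93.0%. The J-domain genes of the mitochondrion were lower than Hspa9 and Hspd1. By the median of their entries, all but Dnajc15 were above Hspe1. Dnaja3, the main partner of mortalin in the matrix, had 1.64, Dnajc11 had 0.90 and Dnajc15 had 0.62. Dnajc19, of the protein import motor, had 1.02, 1.00 and 0.25 in its entries.

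The heat shock element (HSE) is the site of heat shock factors, and the copies of Hspd1 are shown as an example. Only exact matches to a single form were counted, so a promoter without a match may hold a copy that differs from it. In this form, 3 units as GAANNTTCNNGAA on either strand, HSE was present for 4 of the 74 members, Hspd1, Hspe1, Hsph1 and Dnajb6. It was in 6 of the members' 93 promoters (6.45%) and in 198 of all promoters (0.603%). Hspd1 and Hspe1 are both counted for the same copies, since their windows overlap. Dnajb6 and Hsph1 each have 2 overlapping windows that hold the same copy, and the copy of Hsph1 lies after its start. The 6 promoters are thus not separate cases, and overlapping windows were not merged among all promoters either. The 2 copies of Hspd1 overlap, lie inside its GENCODE gene and are read with GAA first, with the 3 units in capitals.

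Hspd1, chr1:55144903-55144915, minus strand, same direction as the gene: GAAggTTCtaGAA
Hspd1, chr1:55144908-55144920, plus strand, opposite direction: GAAccTTCcgGAA

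Their near ends lie 127 and 132 bases before the RefSeq start. The 4 genes with this element had activities of 7.13 for Hspd1, 6.34 for Hsph1, 3.25 for Dnajb6 and 0.63 for Hspe1. The 66 active members with a promoter and no such match ran from 0.03 to 311.5, so the former lay inside the range of the latter.

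J-domain proteins pass clients to Hsp70 and start its ATP hydrolysis. Of their 41 genes, 37 were active, beside 68.7% of all symbols. Their median was 1.21 RPKmM, and 22 (53.7%) were at 1 or above, beside 31.4% of all symbols. At 10 or above there was none by the median of its entries, where the share over all symbols is 1.94%. The highest was Dnajb11, a partner of BiP, with 10.9 and 7.23 in its entries, so that 1 of its entries was above 10. Dnajb12 and Dnajc14, both anchored in the ER membrane, followed at 6.54 and 5.58, and then Dnaja2 at 4.12, Dnajc21, a ribosome assembly factor, at 4 and Dnajb1, the classical Hsp40, at 3.62 and 3.95 in its entries. The lowest active genes were Dnajc22, Dnajc12, Dnajc17 at 0.16, Dnajc27 at 0.31, Dnajc28 at 0.34 and Dnajc4 at 0.35. Dnajc12 assists aromatic amino acid hydroxylases. By subfamily, the median was 2.35 over 4 Dnaja genes, 2.83 over 9 active Dnajb genes and 0.935 over 24 active Dnajc genes.

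Small heat shock proteins hold unfolded chains without ATP. Hspb8, a partner of Bag3 in muscle, had 0.92, Hspb6 0.50 and Hspb7, known from heart and muscle, 0.26. Hspb11, an intraflagellar transport protein that shares only the name, had 0.75. None of these 4 reached 1 RPKmM, where 31.4% of all symbols did, and all lay between the quartiles of all active symbols. Cryab, a small heat shock protein that the rule does not reach, had 1.38. Of the proteins that bind Hsp70 or small heat shock proteins, Hspbp1 had 1.84 and Hspbap1 0.74.

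Among the heat shock factors, Hsf1, which drives the response to heat, had the highest activity, 3.75 RPKmM, above 88.8% of all active symbols. Hsf2, known from development, had 1.75, so Hsf1 was 2.14 times Hsf2. Hsf5, a testis factor, had 0.21 and Hsf4, a lens factor, 0.10, and both Hsf3 entries were inactive.

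Of the 90 symbols, 15 had several RefSeq entries and 12 had several active ones. In 3 of these 12 the highest entry was at least 1.5 times the lowest, where the share over the 2300 symbols with several active entries is 22.3%. For Dnajc19 the entries were 0.25, 1.00 and 1.02, a ratio of 4.08. For Hspa12a they were 1.33 and 2.84, and for Dnajb11 7.23 and 10.9. The other 9 symbols had entries within 1.5 times of each other. Entries of a gene overlap and count the same reads in part, so they are no replicates.

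Short genes were at both ends of the range. Across the 85 active members, Spearman's rank correlation of activity with the gene length in the mm9 annotation was −0.116, a description over genes that share both libraries. It was −0.0569 over the 47 cytosolic and −0.425 over the 23 ER members. Of the 10 most active members, 5 were under 10 kb, from 4.22 kb for Hspa8, and the longest of them was Canx at 31.2 kb. The 22 active members under 10 kb were spread widely around a median of 0.89 (quartiles 0.343 and 14.6), and the 63 of at least 10 kb less widely around 2.71 (0.89 and 6.22). Median lengths were alike in the cytosol, 17.6 kb, and in the ER, 18.2 kb, and the mitochondrial genes had 25.3 kb.

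**Figure D4:**
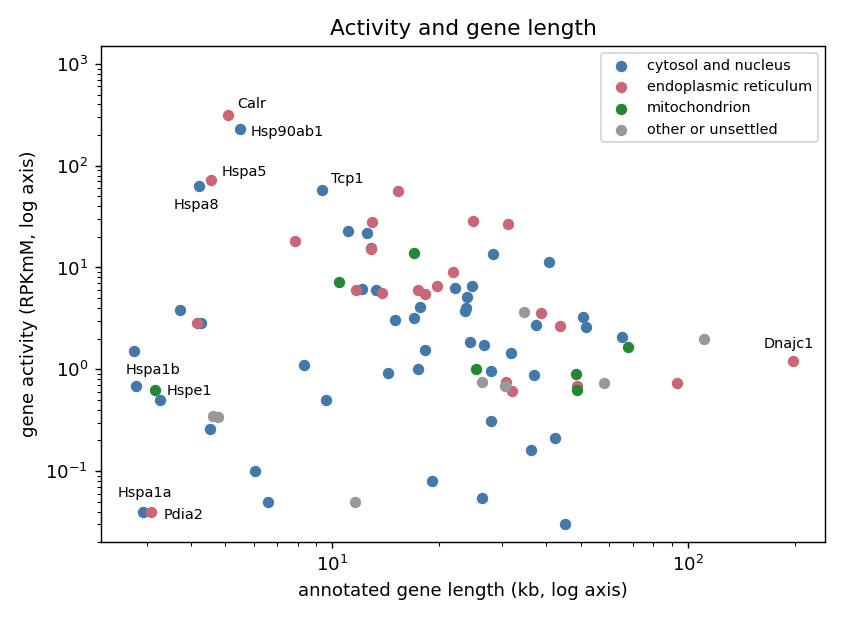
Gene activity (vertical axis, RPKmM, log scale) against annotated gene length (horizontal axis, kb, log scale) for the 85 active members, coloured by compartment. Members under 10 kb run from 0.04 for Hspa1a and Pdia2 to 311.5 for Calr, and the longest, Dnajc1, is at 1.21.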

How the data were processed

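GRO-seq reads of 2 libraries of C2C12 myoblasts were processed by the authors. Per the methods and the submitters' notes, reads from CASAVA 1.8 were mapped to mm9 with Bowtie2, trimmed and realigned where they failed, kept where unique with a mapping quality of 40 or more, cleared of rRNA and tRNA repeats, and pooled. The authors deposited gene activity as RPKM over mappable bases (RPKmM), rounded to 2 decimals, for RefSeq transcripts of at least 2 kb on chromosomes 1 to 19 and X, with a word where a false discovery rate of 0.01 was not reached. The values were used as deposited. The table holds densities, with neither read counts nor mappable lengths, and no counting interval was computed.

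The members and lists were chosen with earlier results of these data known. Medians and counts were computed over gene symbols. No p-value was computed, since genes are not replicates. All families were named in the text except the J-domain genes, of which the 6 highest and 6 lowest were taken, with all inactive members and those whose entries differ by 1.5 times. Other J-domain genes (Dnaja3, Dnajc1, Dnajc3, Dnajc5, Dnajc11, Dnajc15 and Dnajb6), Cryab and Trap1 were named after their values were seen. The motifs, the proteasome genes and the snoRNA alternatives were chosen after the values were seen. Gene positions came from GENCODE vM1 on mm9 (all 90 symbols matched), and words of 75 bases were counted over both strands of that genome. Summaries were tested on simulated data. Python 3.11.15, numpy 2.4.6, pandas 2.3.3, scipy 1.17.1, numba 0.67.0 and matplotlib 3.10.9 were used.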

Additional observations from a re-analysis of the deposited data

How the results depend on the processing

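A value was taken as moved where an alternative differed from it by 1.5 times or more. Without the J-domain family, the median activity was 5.73 RPKmM over all members, 18.2 over ER members and 7.13 over mitochondrial members, and the ratios to the cytosolic median were 6.31 for the ER and 2.47 for the mitochondrion. With geometric means, the mitochondrial value was 1.79 with a pseudocount of 0.01 and 1.83 with 0.1, and its ratio to the cytosolic value was 0.994 and 0.894, so the place of the mitochondrial genes depends on the summary. The ratio of the highest to the lowest CCT subunit was 7.23 without the snoRNA host genes, an alternative chosen after seeing the data. The other 45 of 55 alternatives, among them single entries, the highest entry, activities of at least 0.1, inactive genes at 0 and genes of at least 10 kb, moved no value by that much, and the ratio of the ER to the cytosolic median stayed above 1 in each, from 2.13 upward. No paired analysis was possible because the table holds 1 pooled column of a single group. For the same reason no library could be left out.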
